A study of Mus musculus with 11 samples.

Results

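The genes described here are 9 through which astrocytes act on synapses: Sparc, Sparcl1, Gpc4, Gpc6, Chrdl1, Thbs1, Thbs2, Megf10 and Mertk. They were picked by name from 20259 genes measured, and each was read from its probe set, the group of array probes that the platform annotation pairs with that symbol alone. All 9 had 1 such probe set. The arrays measured mRNA on tagged ribosomes pulled down from mouse hippocampus (translating ribosomal affinity purification, TRAP). The mice were adult Ribo-Tag animals in which Aldh1l1-Cre, a recombinase driven by an astrocyte promoter, switches on an epitope-tagged ribosomal protein, and every diet group carried both alleles. Fed mice ate normal chow for 4 weeks (4 arrays), ketogenic mice ate a high-fat, low-carbohydrate diet for 4 weeks (4 arrays), and fasted mice went without food for 18 h according to the treatment protocol and the methods, while their sample label says 24 h (3 arrays). Each array is labelled as a biological sample of its own, but the labels do not say whether 1 or several animals stand behind each, nor their sex. Where tissue of several animals shared a sample, p-values would measure the spread between samples only.

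Astrocytes shape synapses with secreted proteins and by engulfment. Thrombospondins bind the calcium channel subunit α2δ-1 on neurons and promote the formation of structural synapses, and Sparcl1 (hevin) bridges neurexins and neuroligins across the cleft, which its relative Sparc antagonises. The glypicans Gpc4 and Gpc6 are heparan sulphate proteoglycans that bring AMPA-type glutamate receptors to young synapses, and Chrdl1, a secreted antagonist of bone morphogenetic proteins (BMPs), promotes the switch to mature receptors that contain GluA2. Megf10 and Mertk are phagocytic receptors by which astrocytes take up synapses, and Mertk does so with ligands that bridge it to phosphatidylserine on the target membrane.

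The label of the pull-downs was set against marker genes. All 21 measured astrocyte markers, Aldh1l1 among them, had a mean over the 11 arrays above 3.96 on the log2 scale, the 95th percentile of 862 odorant receptor genes, which are mostly silent outside the nose and mark here the level of a gene without expression. The connexin gene Gja1 was nearest to that level, with a mean of 3.98, and read below it on ketogenic arrays 1, 2 and 4 (3.77, 3.79 and 3.76), an observation made after its values were seen. The mean of neuron markers was also well above this level, at 7.68 to 7.92 log2 over the 11 arrays, and the purity of the pull-downs could not be measured since no unpurified tissue was analysed here. The astrocyte markers moved with the ketogenic diet. Their mean ran from 8.16 to 8.29 log2 on the fed arrays, from 8.06 to 8.26 on the fasted arrays and from 7.66 to 7.92 on the ketogenic arrays, and 8 of the 21 were lower on ketogenic than on fed arrays after adjustment. Between diets, fewer astrocyte ribosomes in a pull-down and less mRNA of a gene per astrocyte cannot be told apart. Fed array 2 and fasted array 2 differed most from the other arrays, with weights of 0.25 and 0.46 in limma against 1.03 to 1.43 for the other arrays, and the results named below as resting on them are given with and without them. Of the 9 genes, 8 had a mean above the silent level. Gpc6, at a mean of 3.32 log2, lay below it, so that its values cannot be told from those of silent genes.

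Between ketogenic and fed arrays Megf10 was the single member that passed the adjusted threshold, and 8 of the 9 members had a lower mean on the ketogenic arrays, as did 46.5% of all genes. Megf10 was 1.46-fold lower. That call was lost with the sample number as a block and in the plain test named in the study's methods (the methods' t-test). It was also lost without any 1 of 3 ketogenic arrays and relative to the astrocyte marker mean of each array. All of these fits are given with its values. Chrdl1, Mertk and Sparcl1 did not pass the adjusted threshold, although none of their ketogenic values reached the lowest fed value. One member called out of 9 stood against 0.884% of all 20259 genes (179 genes, 155 of them lower) at an adjusted p under 0.05 from limma. The 4 members whose groups did not overlap stood against 10.7% of all genes. The median log2 fold change of the 9 members was -0.24, that of the astrocyte markers -0.42 and that of all genes 0.01.

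The engulfing receptors come first. Megf10 read 5.76, 5.86, 5.78 and 5.73 log2 on fed arrays 1 to 4, 5.73, 5.52 and 5.71 on fasted arrays 1 to 3, and 5.28, 5.16, 5.33 and 5.18 on ketogenic arrays 1 to 4. The ketogenic values lay below all fed and all fasted values, and the fasted values also lay below the lowest fed one, narrowly so on fasted array 1. The group means were 5.79 ± 0.05 (SD, n = 4) fed, 5.65 ± 0.12 (n = 3) fasted and 5.24 ± 0.08 (n = 4) ketogenic. On the log2 scale Megf10 fell by 0.55 from fed to ketogenic (standard error 0.07, adjusted p = 0.0141 from limma). The call was lost without ketogenic array 1 (adjusted p = 0.0586), array 2 (adjusted p = 0.0618) or array 4 (adjusted p = 0.0718), while the log2 difference stayed between -0.58 and -0.52 whichever fed or ketogenic array was left out. It was also lost with the sample number as a block (adjusted p = 0.0575) and in the methods' t-test (adjusted p = 0.0507), at the same log2 difference. Relative to the astrocyte marker mean of each array the call was lost too, at a log2 difference of -0.07 (adjusted p = 0.487). The median of all genes on that scale was 0.50. Between fasted and ketogenic arrays the log2 difference was 0.42 (adjusted p = 0.0742), which without fed array 2 and fasted array 2 was 0.48 (adjusted p = 0.0357).

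Mertk, a receptor tyrosine kinase of the TAM family, read 5.51, 5.78, 5.59 and 5.41 log2 on the fed arrays, 5.67, 5.75 and 5.67 on the fasted arrays, and 5.11, 5.32, 5.32 and 5.08 on the ketogenic arrays. Again every ketogenic value lay below every fed and fasted value, and fed and fasted values overlapped. The ketogenic mean of 5.21 ± 0.13 (SD, n = 4) was 1.29-fold below the fed mean of 5.57 ± 0.16 (n = 4), a log2 difference of -0.36 (95% confidence interval -0.57 to -0.16, adjusted p = 0.113). The fasted mean was 5.70 ± 0.04 (n = 3). Between fasted and ketogenic arrays the difference was 0.49 log2 (0.27 to 0.71, adjusted p = 0.0826). Mertk is also made by microglia, whose 12 measured markers had means of 5.87 to 6.49 log2 on fed, 5.87 to 6.42 on fasted and 6.18 to 6.45 on ketogenic arrays. None of these 12 passed in any comparison, and their median log2 fold change between ketogenic and fed arrays was 0.03. The part of microglia in the Mertk values was not tested.

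**Figure D1:**
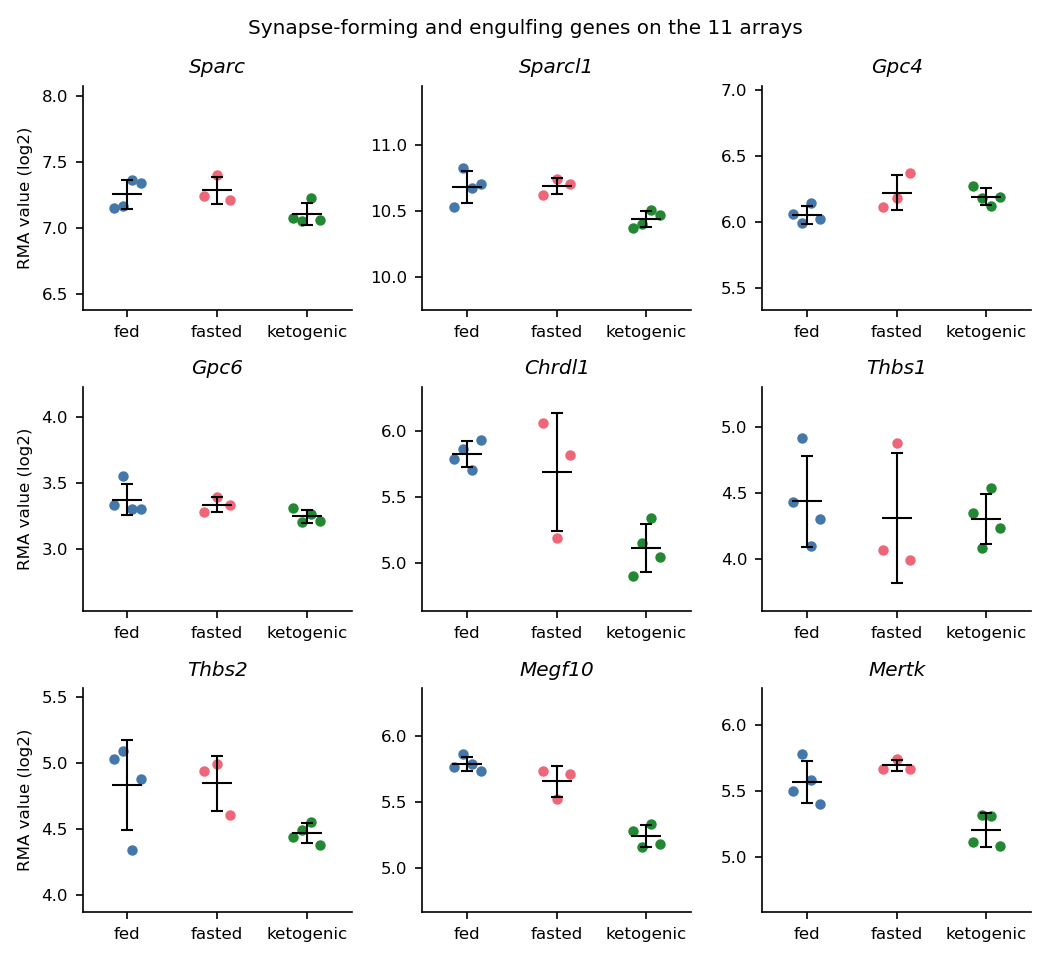
Deposited RMA values (log2, vertical axis) of the 9 genes on the 4 fed, 3 fasted and 4 ketogenic arrays. Points are single arrays, the wide bar is the group mean and the whiskers are 1 SD, and every panel spans the same log2 range. The ketogenic points of Megf10, Mertk and, narrowly, Sparcl1 lie under all other points, while those of Gpc4 and Thbs1 lie among them.

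Other genes of engulfment were also read. Of 17 listed receptors, bridging ligands and adaptors, none of them members, 4 were lower under the ketogenic diet than in the fed group and 13 did not pass, against 0.884% of all genes called. Of the 21 astrocyte markers, 8 were lower in the same comparison. The list median was -0.30 log2, beside -0.42 for the astrocyte markers and 0.01 for all genes. Axl, a TAM receptor like Mertk, read 6.31, 6.35, 6.39 and 6.26 log2 on the fed arrays, 6.34, 6.24 and 6.24 on the fasted arrays and 5.77, 5.89, 5.97 and 5.88 on the ketogenic arrays. Its ketogenic values did not overlap with the others, and they lay 0.45 below the fed ones on average (log2 fold change -0.45, adjusted p = 0.0185). Abca1, a lipid exporter whose relative in the worm acts beside the Megf10 homologue, fell by 0.60 log2 (adjusted p = 0.0206). Itgav, the αv integrin subunit, fell by 0.46 (adjusted p = 0.0322). Mfge8, a secreted bridge between phosphatidylserine and αv integrins, fell by 0.41 (adjusted p = 0.0275). Taking the median over a gene's probe sets ended the calls of Abca1 (-0.49, adjusted p = 0.141), Itgav (-0.22, adjusted p = 0.493) and Axl (-0.38, adjusted p = 0.546). Leaving out ketogenic array 1, 2 or 4 ended the call of each of the 4 genes, as did fed array 4 for Abca1, fed array 3 for Axl, and fed arrays 1, 3 and 4 for Itgav and Mfge8 (adjusted p up to 0.115), with log2 changes between -0.65 and -0.38 over these 4 genes. None of the 4 passed with the sample number as a block (adjusted p from 0.0763 to 0.0955) or in the methods' t-test (adjusted p from 0.0694 to 0.124), and Mfge8 did not pass with each array centred on the median of all probe sets (adjusted p = 0.0755). Relative to the astrocyte marker mean of each array none of the 4 passed either (adjusted p from 0.327 to 0.835). On that scale Abca1 was at -0.11, Itgav at 0.02, Axl at 0.03 and Mfge8 at 0.07, where the median of all genes was 0.50.

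The ligand Pros1, protein S, which bridges to the TAM receptors, had a log2 fold change of -0.63 between ketogenic and fed arrays that did not pass (adjusted p = 0.0748), and neither did the adaptor Dock1 (-0.38, adjusted p = 0.076). Both passed among genes above the silent level alone (adjusted p = 0.0479 and 0.0472), Dock1 also with array weights (adjusted p = 0.0441) and Pros1 also without fed array 3 (adjusted p = 0.0414). The third TAM receptor, Tyro3, and the Megf10 relative Megf11 had positive values of 0.22 and 0.24 that did not pass (adjusted p = 0.255 and 0.245); these 2 were named after their values were seen. No gene of the engulfment list passed between fasted and fed or between fasted and ketogenic arrays. Over the same 3 comparisons the list medians were -0.30 for ketogenic against fed, -0.06 for fasted against fed and 0.20 for fasted against ketogenic, and the first 2 share the fed arrays.

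**Figure D2:**
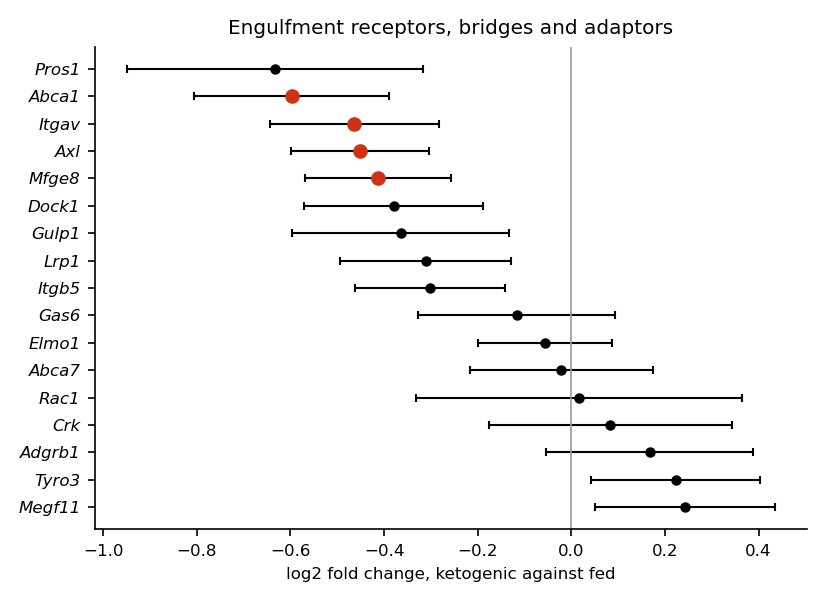
Log2 fold change between ketogenic and fed arrays (horizontal axis) of the 17 engulfment genes other than Megf10 and Mertk, with 95% confidence intervals from limma. Red points passed at an adjusted p under 0.05. Pros1 has the most negative value (-0.63) and Megf11 the most positive (0.24).

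The start-site regions of Mertk and Axl are shown because both are TAM receptors whose ketogenic values lay below all their fed and fasted values. RefSeq promoter windows, from 250 bases before to 50 bases after the start of the gene in GRCm38.p6, were at hand for 4 of the 9 members (Mertk, Sparc, Thbs2 and Gpc4). The Mertk window is chr2:128698665-128698964 on the plus strand and the Axl window chr7:25788684-25788983 on the minus strand, each printed 5′ to 3′ along its gene. Capitals mark GC boxes (GGGCGG on either strand).
Mertk: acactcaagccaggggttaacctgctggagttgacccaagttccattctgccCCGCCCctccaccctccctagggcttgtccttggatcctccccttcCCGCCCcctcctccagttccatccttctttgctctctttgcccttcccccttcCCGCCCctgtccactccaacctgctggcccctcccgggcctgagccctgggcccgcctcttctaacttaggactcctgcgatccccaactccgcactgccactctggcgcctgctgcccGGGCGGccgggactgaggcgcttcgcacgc
Axl: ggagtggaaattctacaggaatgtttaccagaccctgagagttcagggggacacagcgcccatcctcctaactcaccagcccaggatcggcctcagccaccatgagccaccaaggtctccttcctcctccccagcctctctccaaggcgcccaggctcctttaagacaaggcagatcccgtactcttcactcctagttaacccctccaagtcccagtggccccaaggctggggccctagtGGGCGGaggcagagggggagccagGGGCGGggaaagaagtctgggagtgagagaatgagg
Mertk held 4 GC boxes, which begin at positions -198, -152, -99 and 21 relative to the start, and Axl held 2, at -10 and 15. Of 32851 promoter windows 35.7% held at least 1. Neither window held a TATA box (TATAAA, 13.6% of windows) or a CCAAT box (CCAAT, 37.4%), both searched on either strand. The Gpc4 window held 1 GC box, the Thbs2 window 1 TATA box and 2 CCAAT boxes, and the Sparc window none of these 3 motifs. These matches describe the letters in the windows and were not tested for function.

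Among the secreted members, Chrdl1 had the largest difference between ketogenic and fed arrays and a wide spread among fasted arrays. It read 5.79, 5.86, 5.70 and 5.93 log2 on the fed arrays, 6.06, 5.19 and 5.81 on the fasted arrays and 4.90, 5.15, 5.34 and 5.05 on the ketogenic arrays. The ketogenic values lay below all fed values, and fasted array 2 lay within the ketogenic range. The ketogenic mean of 5.11 ± 0.18 (SD, n = 4) was 1.64-fold below the fed mean of 5.82 ± 0.10 (n = 4), and the log2 difference of -0.71 (95% confidence interval -1.07 to -0.35) missed the threshold (adjusted p = 0.0817). It passed with array weights (adjusted p = 0.0316) and without fed array 2 and fasted array 2 (adjusted p = 0.0345). The fasted mean was 5.69 ± 0.45 (n = 3), and the difference from ketogenic arrays was 0.58 log2 (adjusted p = 0.272). Leaving out those 2 arrays gave 0.83 (adjusted p = 0.0431). The log2 difference of fasted from fed arrays was -0.13 (adjusted p = 0.899) and turned to 0.12 without fasted array 2.

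None of the 12 measured genes of the chordin family, the BMPs and their receptors passed in any of the 3 comparisons. At an unadjusted p under 0.05, 3 were lower and 1 was higher between ketogenic and fed arrays, where 6.53% of all genes were lower and 7.39% higher. Bmp7, a ligand of this family, had a log2 fold change of -0.44 (adjusted p = 0.224), and its receptor Bmpr1a had one of -0.41 (adjusted p = 0.167). The list median was 0.07.

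Sparcl1 read 10.53, 10.83, 10.67 and 10.70 log2 on the fed arrays, 10.63, 10.74 and 10.71 on the fasted arrays and 10.37, 10.40, 10.51 and 10.47 on the ketogenic arrays. The highest ketogenic value lay just under the lowest fed value, that of fed array 1. The log2 difference between ketogenic and fed means (10.44 ± 0.06 and 10.68 ± 0.12, SD, n = 4 each) was -0.24 (95% confidence interval -0.41 to -0.08) and did not pass (adjusted p = 0.179). Fasted arrays had a mean of 10.69 ± 0.06 (n = 3), which differed from the fed mean by 0.01 (-0.17 to 0.19) and from the ketogenic mean by 0.25 (adjusted p = 0.296).

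Its antagonist Sparc read 7.15, 7.17, 7.36 and 7.34 log2 on the fed arrays, 7.24, 7.40 and 7.21 on the fasted arrays and 7.08, 7.05, 7.23 and 7.06 on the ketogenic arrays. Ketogenic array 3 reached into the fed range and the other 3 ketogenic arrays lay below it. The log2 difference between ketogenic and fed arrays was -0.15 (95% confidence interval -0.33 to 0.03, adjusted p = 0.435), and that between fasted and fed arrays 0.03 (adjusted p = 0.961). Cells of the choroid plexus and ependyma were read by 7 markers. Their mean was 6.42 log2 on ketogenic array 3 and 5.27 to 5.60 on the other ketogenic arrays. It was 6.88 on fasted array 2, which had the highest Sparc value. Over the 11 arrays Sparc had r = 0.78 with this mean and 0.67 with the astrocyte marker mean. The part of these cells in the Sparc values was not tested. No gene of the 6 others in the SPARC family passed in any comparison. Smoc2, a matricellular protein of that family, had a log2 fold change of 0.35 between ketogenic and fed arrays (adjusted p = 0.0732), which passed with array weights (adjusted p = 0.0429) and among genes above the silent level alone (adjusted p = 0.0453), and Smoc1 had one of -0.22 (adjusted p = 0.299).

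Gpc4 was the one member whose mean was higher under the ketogenic diet than in the fed group. It read 6.06, 5.99, 6.14 and 6.02 log2 on the fed arrays, 6.11, 6.18 and 6.37 on the fasted arrays and 6.28, 6.18, 6.12 and 6.19 on the ketogenic arrays. Fed array 3 lay within the ranges of both other groups. The log2 difference from the fed mean of 6.05 ± 0.06 (SD, n = 4) was 0.14 for ketogenic arrays (95% confidence interval -0.03 to 0.30, adjusted p = 0.444) and 0.17 for fasted arrays (-0.01 to 0.34, adjusted p = 0.711), the latter being 0.09 when fasted array 3 was left out. Gpc6, below the silent level, ran from 3.20 to 3.55 log2 over the 11 arrays, with the highest value on fed array 2, and its groups overlapped. Of the 4 other glypicans measured, Gpc5 was lower on ketogenic than on fed arrays. It read 4.72, 4.83, 4.77 and 4.77 log2 on the fed arrays, 4.73, 4.60 and 4.82 on the fasted arrays and 4.39, 4.41, 4.47 and 4.37 on the ketogenic arrays, with an adjusted p of 0.0371 for the log2 difference of -0.36. The ketogenic values lay below all others while fed and fasted values overlapped, and the call was lost in all 8 fits without 1 fed or ketogenic array (adjusted p from 0.0544 to 0.13), with the sample number as a block (adjusted p = 0.11) and with centring on the median of all probe sets (adjusted p = 0.102). Gpc1 had a log2 fold change of 0.42 that did not pass (adjusted p = 0.118), and Gpc2, below the silent level, one of -0.10, which leaving out fed array 2 or ketogenic array 3 moved to -0.27 and -0.25, and which ran from -0.07 to -0.03 without any single one of the other fed or ketogenic arrays.

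The 2 thrombospondins among the members had the widest spread on the fed arrays (SD 0.35 for Thbs1 and 0.34 for Thbs2), and neither passed in any comparison. Thbs1 read 4.43, 4.91, 4.09 and 4.30 log2 on the fed arrays, 4.06, 4.87 and 3.99 on the fasted arrays and 4.35, 4.08, 4.54 and 4.24 on the ketogenic arrays. Its highest values were on fed array 2 and fasted array 2, the arrays that differed most from the others, and its log2 difference between ketogenic and fed arrays of -0.13 (95% confidence interval -0.61 to 0.34, adjusted p = 0.839) was 0.03 without them. Thbs2 read 5.03, 5.10, 4.34 and 4.88 log2 on the fed arrays, 4.94, 4.99 and 4.61 on the fasted arrays and 4.45, 4.50, 4.56 and 4.38 on the ketogenic arrays. Fed array 3 had the lowest Thbs2 value of all 11, whereas the fasted values all lay above the ketogenic ones. The log2 differences were -0.37 for ketogenic against fed (-0.71 to -0.03, adjusted p = 0.319) and 0.38 for fasted against ketogenic arrays (0.02 to 0.74, adjusted p = 0.446).

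Thbs4, a further thrombospondin, was lower on the ketogenic arrays. It read 8.18, 8.48, 8.05 and 8.18 log2 on the fed arrays, 8.52, 7.70 and 8.34 on the fasted arrays and 6.98, 7.33, 7.66 and 7.09 on the ketogenic arrays. The ketogenic values lay below all others, with fasted array 2 nearest to them. Thbs4 fell by 0.96 log2 from fed to ketogenic (standard error 0.19, adjusted p = 0.0457), and the call was lost without any single fed or ketogenic array other than ketogenic array 3 (adjusted p up to 0.154), with log2 changes from -1.09 to -0.86. It was also lost with the sample number as a block (adjusted p = 0.126), in the methods' t-test (adjusted p = 0.126) and with centring on the median of all probe sets (adjusted p = 0.0755). The other members of this list, Comp (-0.07) and Thbs3 (0.06), did not pass. Fibroblasts and vessel cells also make thrombospondins. The mean of 10 meningeal fibroblast markers ran from 5.29 to 5.64 log2 on fed, 5.41 to 5.59 on fasted and 5.003 to 5.28 on ketogenic arrays, and 1 of them, Fmod, was lower on ketogenic than on fed arrays and higher on fasted than on ketogenic arrays. The mean of 20 endothelial and mural markers ran from 4.73 to 5.52 on fed, 4.96 to 5.61 on fasted and 4.68 to 5.26 on ketogenic arrays, with 1 lower on ketogenic arrays, Pdgfrb. The highest fed and fasted means were those of fed array 2 and fasted array 2. Over all arrays Thbs1 had r = 0.69 with this mean, 0.39 with the fibroblast mean and 0.03 with the astrocyte marker mean. For Thbs2 these were 0.77, 0.79 and 0.57. The fibroblast mean also had r = 0.77 with Megf10, 0.70 with Mertk, 0.69 with Sparcl1 and 0.63 each with Chrdl1 and Sparc. With Gpc6 it had r = 0.56 and with Gpc4 r = -0.34. The diet means were left in, and none of these r values carries a test. Fmod and Pdgfrb are named here after their values were seen, and the part of these cells in the thrombospondin values was not tested.

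**Figure D3:**
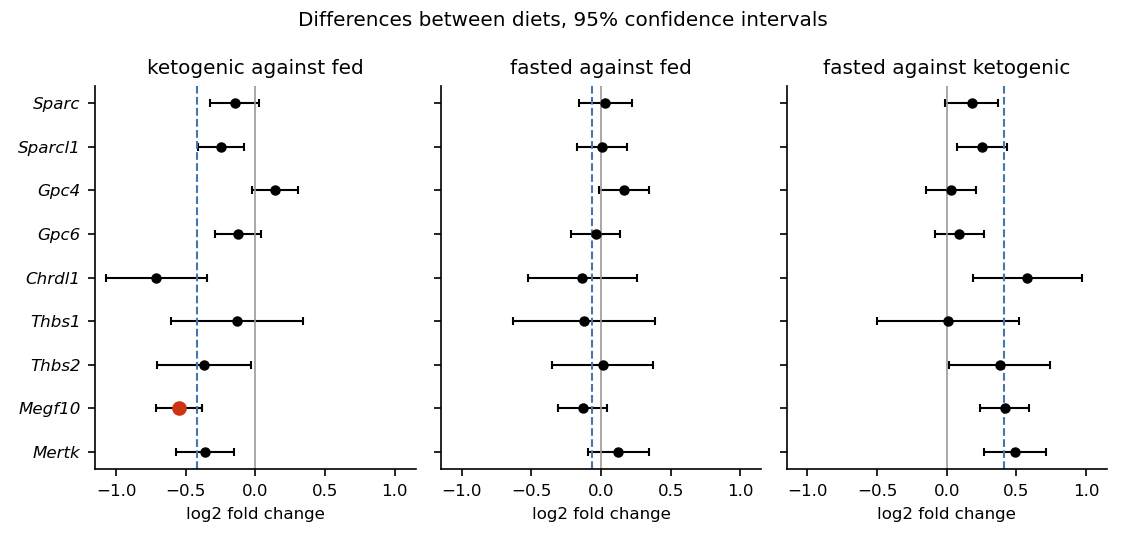
Log2 fold changes (horizontal axis) of the 9 genes in the 3 comparisons, with 95% confidence intervals from limma. The red point, Megf10 in ketogenic against fed arrays, passed at an adjusted p under 0.05, and the dashed line is the median of the 21 astrocyte markers (-0.42, -0.07 and 0.41 from left to right).

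Between fasted and fed arrays no member passed, none had an unadjusted p under 0.05, and the log2 differences ran from -0.13 for Chrdl1 (0.12 without fasted array 2) to 0.17 for Gpc4 (0.09 without fasted array 3). Of all genes 0% (0 of 20259) passed from limma, with 1433 (7.07%) at an unadjusted p under 0.05 and 0 in the methods' t-test after adjustment. Megf10 was the 1 member whose groups did not overlap, against 6.43% of all genes, with a log2 difference of -0.13 (95% confidence interval -0.31 to 0.04) that was -0.07 without fasted array 2 and -0.04 when fed array 2 was left out as well. The 95% intervals of Sparc (-0.16 to 0.22) and Sparcl1 (-0.17 to 0.19) were narrow beside those of Thbs1 (-0.64 to 0.39) and Chrdl1 (-0.53 to 0.26), which allow larger differences.

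Between fasted and ketogenic arrays all 9 members had a higher mean after fasting, where 60.7% of all genes had a lower one, with a median of 0.25 log2 against 0.41 for the astrocyte markers and -0.04 for all genes. No member passed, against 0.281% of all genes (57), whereas 5 had an unadjusted p under 0.05, against 10.6% of all genes, and 4 (Sparcl1, Thbs2, Megf10 and Mertk) had groups that did not overlap, against 13.9% of all genes. With array weights, 2 members passed here, Megf10 (adjusted p = 0.0185) and Mertk (adjusted p = 0.0398). Because the ketogenic arrays enter this comparison and the one with fed arrays, these sets of values are not independent.

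Since astrocyte markers were lower on the ketogenic arrays, the members were also read relative to the mean of these markers on each array. On that scale the median of all genes between ketogenic and fed arrays was 0.50, so that each value is set against that shift. Megf10 had a log2 difference of -0.07 (95% confidence interval -0.26 to 0.13) and Chrdl1 one of -0.23 (-0.51 to 0.06), both intervals including the marker mean. Mertk lay at 0.12 (-0.11 to 0.35) and Thbs2 at 0.12 (-0.26 to 0.49). Sparcl1 was at 0.24 (0.03 to 0.45), Sparc at 0.33 (0.11 to 0.56) and Gpc4 at 0.62 (0.38 to 0.86), above the markers. Since this scaling raised the values of all genes by the same amount, small negative values turned positive by its construction, among them those of Sparc, Sparcl1, Gpc6, Thbs1, Thbs2 and Mertk. All 6 lay below the median of all genes on this scale, as they did on the RMA scale. The part of the lower marker level in the Megf10 value was not tested.

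**Figure D4:**
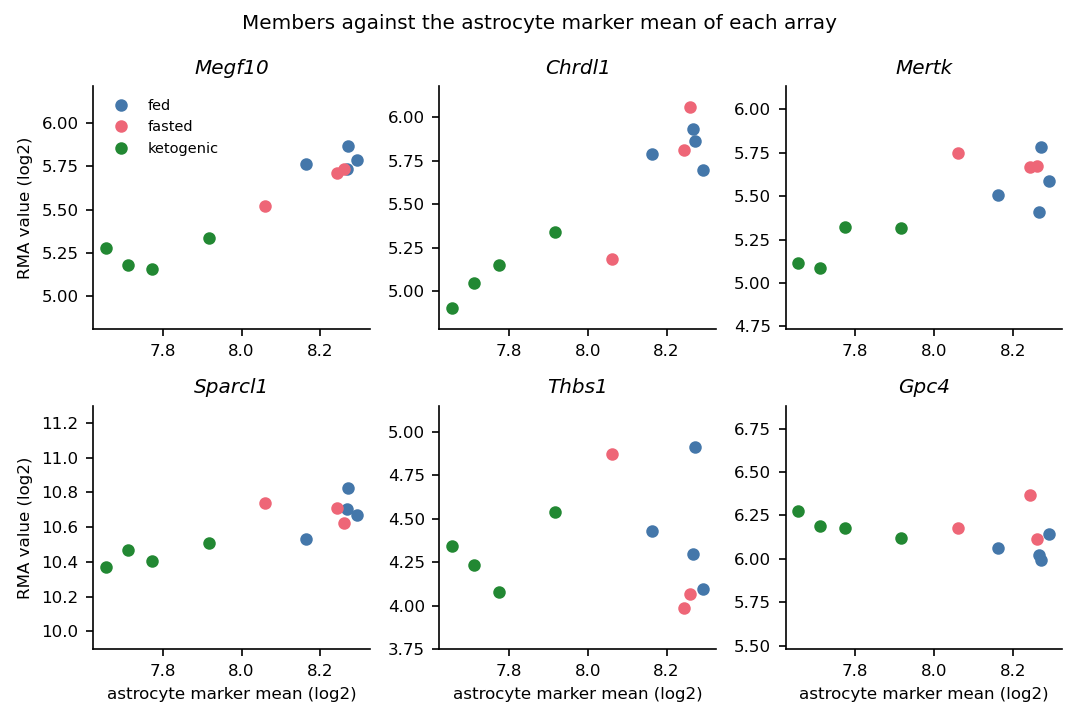
RMA value (log2, vertical axis) of 6 of the genes against the mean of the 21 astrocyte markers on the same array (log2, horizontal axis), 1 point an array, coloured by diet. The 4 ketogenic arrays lie at marker means of 7.66 to 7.92, with low Megf10, Chrdl1, Mertk and Sparcl1 values, while Gpc4 and Thbs1 show no such order.

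Within groups the members also varied, here given as Pearson r over the 11 arrays after the diet means were removed, a description of arrays that share their normalization. Over all pairs of members the values farthest from 0 were those of Gpc6 and Thbs1 (r = 0.80), Gpc4 and Thbs2 (r = -0.72), Thbs1 and Thbs2 (r = 0.67) and Chrdl1 and Megf10 (r = 0.66, against 0.89 with the diet means left in). Gpc6 lay below the silent level, which limits every r given here for it. Both Gpc6 and Thbs1 had their highest values on fed array 2 and fasted array 2, the arrays that differed most from the others. The next pairs are the others among Megf10, Chrdl1, Mertk and Sparcl1, the 4 members whose ketogenic and fed values did not overlap. For Megf10 and Mertk r went from 0.79 with the diet means to 0.25 without them. It went from 0.68 to 0.04 for Chrdl1 and Mertk and from 0.67 to -0.04 for Sparcl1 and Chrdl1. Sparcl1 and Mertk went from 0.86 to 0.52 and Sparcl1 and Megf10 from 0.81 to 0.12. Fasted array 2, which had the lowest astrocyte marker mean among fasted and fed arrays (8.06 log2), also had the lowest Chrdl1 and Megf10 of those arrays, whereas its Mertk (5.75) and Sparcl1 (10.74) were the highest of the fasted group. The genes most like each member were sought by Pearson r over the 11 arrays among 13210 genes above the silent level, here with the diet means left in. Megf10 was most like Slc9a3r1, a scaffold protein (r = 0.98), and Lama2, a laminin chain (r = 0.98). Chrdl1 was nearest to Pla2g7 (r = 0.98) and Gusb (r = 0.97), and Mertk to Aldh2 and Trp53bp2 (r = 0.95 each). Sparcl1 was nearest to Acadm and Paqr8 (r = 0.96 each) and Sparc to Car14 (r = 0.94) and Calml4 (r = 0.92). For Thbs1 the nearest were Serpinb6a (r = 0.96) and Mylk (r = 0.92), for Thbs2 Map3k1 (r = 0.93) and Itih2 (r = 0.90), for Gpc4 Spata7 and 9630013K17Rik (r = 0.91 each), and for Gpc6 Dip2b and Clk4 (r = 0.95 each). With the diet means removed, these r values ran from 0.73 (Mertk and Trp53bp2) to 0.97 (Gpc6 and Clk4). Those of Megf10 with Slc9a3r1 and Lama2 were then 0.79 each. These are the highest of many correlations and carry no test.

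The neuronal partners of the secreted members did not pass in any comparison as fitted to all arrays and genes. The 19 measured receptors and binding partners include α2δ subunits, neurexins, neuroligins, glypican receptors and AMPA receptor subunits, and 17 had a mean above the silent level. Between ketogenic and fed arrays 15 of the 19 had a positive log2 fold change and 4 a negative one, where 46.5% of all genes had a negative one. The list median was 0.10 against 0.12 for the neuron markers. Lrrtm4, a postsynaptic glypican receptor, had one of 0.40 (adjusted p = 0.0696), and Nptx1, a pentraxin that gathers AMPA receptors, one of 0.43 (adjusted p = 0.209). Nptx1 read 7.07 on fed array 2 against 7.71 to 7.81 on the other fed arrays, and its value was 0.26 without that array. Lrrtm4 passed with array weights (adjusted p = 0.0309), with each array centred on its median (adjusted p = 0.041) and among genes above the silent level alone (adjusted p = 0.0432), but taking the median of its probe sets gave 0.27 (adjusted p = 0.296). Of 10 other released factors that act on synapses none passed, 2 were higher and 5 lower at an unadjusted p under 0.05 (13.9% of all genes, 7.39% higher and 6.53% lower), and Clu, the chaperone clusterin, had a log2 fold change of -0.34 (adjusted p = 0.101), while Tnf (-0.35) lay below the silent level. Of 6 measured complement genes none passed, with C1ra at -0.60 (adjusted p = 0.446) and C1qa at 0.27 (adjusted p = 0.46). For C1ra the median of its probe sets gave -0.10, and leaving out ketogenic array 4 or ketogenic array 2 gave -0.31 and -0.88.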

How the data were processed

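Affymetrix mouse exon arrays were hybridized with amplified (NuGEN Pico WTA), biotin-labelled mRNA of tagged ribosomes. The authors deposited 1 table of log2 values for the 11 arrays, made with RMA in Partek on mm9 (per the labels), a method that corrects background, gives every array the same distribution of values and combines the probes of each set. The log base is not given in the sources used here and was read as log2, the base of RMA. No versions are given. Of 115830 probe sets 25539 carry 1 gene symbol, 2300 several and 87991 none. For each of 20259 genes the set with the highest mean was used, and 19800 genes were found in the RefSeq table by Entrez ID. No array was left out of the first analysis, and every value column matched a sample.

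Diet means were fitted to all 11 arrays in limma 3.58.1 (lmFit and eBayes, R 4.3.3), with 3 two-sided comparisons and Benjamini-Hochberg adjustment over 20259 genes at a threshold of 0.05. The procedure was tested on simulated data in which genes varied independently, changes were larger than those of the members and no array was outlying. That run does not measure how sure the calls made here are. Intervals are 95% intervals of the fit. The number of arrays limits precision. The members and all gene lists were chosen with earlier results of these data known. The rule for named genes was all members, the 2 genes most correlated with each, and of each list those past the test with up to 3 more of the largest change between ketogenic and fed arrays. Alternatives were array weights, centring, the median over probe sets, a filter at the odorant receptor level, the methods' t-test, a replicate block, a trended robust estimate and leaving out arrays. Centring on the median of all probe sets was chosen after the data were seen.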

Additional observations from a re-analysis of the deposited data

Results flagged for a closer look

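Dixon's test of the highest or lowest array within a group was applied to the 9 genes in the 2 groups of 4 arrays, 18 tests in all, of which chance alone flags about 1 in 20. Sparc on ketogenic array 3 (7.23 log2) lay above the nearest array of its group (7.08), with a gap of 0.848 of the group's range. That array also had the highest choroid plexus and ependymal marker mean of its group (6.42 log2). Gpc6 on fed array 2 (3.55 log2) lay above the nearest fed array (3.33), with a gap of 0.865 of the range. Fed array 2 also had the highest fed value of Thbs1 (4.91), Thbs2 (5.10), Sparcl1 (10.83), Mertk (5.78) and Megf10 (5.86), and the lowest of Gpc4 (5.99).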

How the results depend on the processing

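Whether the sample numbers pair the arrays could not be settled from the values. Deviations from the group means correlated at -0.12 to 0.18 for same-numbered arrays (10 pairs, median -0.003). For differently numbered arrays they correlated at -0.19 to 0.12 (30 pairs, median -0.006). Fed and fasted arrays of number 2 (0.18) and of number 3 (0.13) lay above the latter range. An array was most like its own number in 7 of 20 comparisons, and so few pairs cannot exclude a pairing. With the sample number as a replicate block, 0 members and 1 gene were called between ketogenic and fed arrays and 6 genes between fasted and ketogenic arrays, where Thbs1 turned to -0.024. The Megf10 difference of -0.55 kept its size but not its call in that fit (adjusted p = 0.0575) and in the methods' t-test (adjusted p = 0.0507), which called 0 members and 12 genes, and 6 genes between fasted and ketogenic arrays.

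With array weights, 2 members and 387 genes were called for ketogenic against fed and 2 members and 188 genes for fasted against ketogenic, and Sparc (-0.033) and Chrdl1 (0.0051) turned sign between fasted and fed arrays and Thbs1 (-0.14) between fasted and ketogenic arrays. The odorant receptor filter gave 282 and 88 genes, with 1 member in the latter. Centring on the median of all probe sets, an alternative chosen after seeing the data, gave 71 and 31 genes, and Thbs1 -0.0024 between fasted and ketogenic arrays. Higher genes made up 13.4% of the calls for ketogenic against fed, and the other settings that scale or weight arrays moved this to 8.45% (median of all probe sets), 22.7% (median of all genes) and 23.0% (weights), and to 99.7% relative to the astrocyte marker mean (16644 higher, 50 lower). The median over probe sets turned Gpc2 to 0.034.

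Without fed array 2 and fasted array 2, 2 members were called for ketogenic against fed, 2 for fasted against ketogenic and 1 gene for fasted against fed. Thbs1 turned to 0.026 and -0.27 in the first 2, and Sparc (-0.057) and Chrdl1 (0.13) in the third.

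Relative to the astrocyte marker mean nearly all genes shifted, with 4 members and 16694 genes called for ketogenic against fed and 2 members and 15361 genes for fasted against ketogenic. For ketogenic against fed the values that turned were Sparc 0.33, Sparcl1 0.24, Gpc6 0.36, Thbs1 0.35, Thbs2 0.12, Mertk 0.12, Itgav 0.021, Axl 0.032, Mfge8 0.071, Gpc5 0.12, Smoc1 0.27, Bmp7 0.044, Bmpr1a 0.077, Dock1 0.10, Gpc2 0.38, Tnf 0.14, Clu 0.15 and Comp 0.42. For fasted against ketogenic they were Sparc -0.24, Sparcl1 -0.17, Gpc4 -0.39, Gpc6 -0.34, Thbs1 -0.41, Thbs2 -0.044 and Megf10 -0.0077, where the median of all genes was -0.46, and for fasted against fed Gpc6 0.023.

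Leaving out 1 array at a time gave 0 to 1 members and 1 to 170 genes for ketogenic against fed, 0 to 1 genes for fasted against fed and 8 to 61 for fasted against ketogenic. Values that crossed 0 were Thbs1 (-0.25 to 0.026) and Comp (-0.11 to 0.012) for ketogenic against fed, Chrdl1 (-0.32 to 0.12), Gpc6 (-0.068 to 0.021), Sparc (-0.028 to 0.066), Sparcl1 (-0.041 to 0.056), Thbs1 (-0.41 to 0.036) and Thbs2 (-0.15 to 0.13) for fasted against fed, and Gpc4 (-0.045 to 0.082) and Thbs1 (-0.27 to 0.17) for fasted against ketogenic. The causes were not tested. Signals of Gpc6 near the silent level limit what can be read from it.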
